A study of Arabidopsis thaliana with 12 samples.

Results

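Short-day leaves of the Arabidopsis thaliana cs26 mutant were set against long-day leaves of the same mutant. The comparison used 6 of the 12 arrays of the series, which are all arrays labelled cs26, and 22746 of the 22810 probe sets, which are all but the 64 control probe sets. The short-day cs26 group (3 arrays) came from plants given 8 h of white light and 16 h of dark and harvested at 5 weeks. The long-day cs26 group (3 arrays) came from plants given 16 h of light and 8 h of dark and harvested at 3 weeks. Col-0 wild-type leaves, with 3 arrays in short days and 3 in long days at the same ages, served only to show where the mutant differed. All plants stood on soil at 20 °C by day and 18 °C by night, and the mutant is a single insertion line, SALK_034133. Because day length and age changed together in both genotypes, they cannot be told apart. The hour of harvest is not among the sample details used here, so its part in any change was not tested. In whole leaves, fewer cells of a type and less RNA per cell cannot be told apart either. The design text calls the 3 arrays of a group biological replicates without saying which plants went into each, so p-values measure the spread between these arrays.

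CS26 makes S-sulfocysteine inside the chloroplast, per the series title and general knowledge, and plants without it are known for a long-day leaf phenotype. Day length reaches the leaf through the circadian clock, through photoreceptors, and through the carbon that daylight leaves to be stored as starch for the night. Leaves also keep a set of immune genes, run by salicylate, jasmonate and calcium signals, that is readily set off by trouble in the chloroplast.

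Every value is a deposited log2 signal of 1 probe set, so differences between groups are log2 changes, and a change of 1 is 2-fold. Changes are short days minus long days and carry the standard error (SE) of a limma model over all 12 arrays. A probe set or gene was called, and is said to have risen or fallen, at a limma adjusted p under 0.05. Signals of different probe sets are not compared with each other.

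Markers of leaf, flower and root were read first. The leaf gene RCA, Rubisco activase, read 13.55, 14.06 and 13.62 in cs26 short days and 13.82, 13.84 and 13.83 in cs26 long days. LHCB4.2, the other gene of the leaf marker list, rose by 2.50 in cs26 and is given below with the photosystem genes. The anther regulator AMS lay between 3.77 and 4.06 on these 6 arrays, near the floor of the table (3.12). The root-hair expansins EXPA7 and EXPA18 lay above that floor, between 4.36 and 4.69 in short days and between 4.81 and 5.12 in long days. No probe set names only CS26, so its own level was not used here. BGLU25, the beta-glucosidase gene beside CS26, averaged 12.14 ± 0.144 in cs26 short days and 11.20 ± 0.411 in cs26 long days (SD, n = 3), against 8.82 in wild-type short days and 7.38 in wild-type long days.

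The arrays of the 2 photoperiods also differed in their control probe sets. The signal at the 5′ end of actin, relative to its 3′ end, averaged -2.07 ± 0.091 in cs26 short days and -1.14 ± 0.091 in cs26 long days (log2, SD, n = 3), with no overlap. For GAPDH the same quantity averaged -0.32 in short days and 0.12 in long days, again with no overlap, and in wild type both controls shifted by about as much (-0.93 and -0.45). For ubiquitin it averaged -0.22 in cs26 short days and 0.02 in cs26 long days, with overlap, and the shift in wild type was -0.05. The 12 Bacillus control probe sets averaged 5.59 to 6.20 on the short-day cs26 arrays and 6.47 to 6.70 on the long-day ones. How far such differences in RNA ends or labelling enter any gene's change was not tested. Replicate 2 of cs26 in short days stood most apart, with an SD of 0.208 around its group mean taken across probe sets, while the other 11 arrays gave 0.104 to 0.155. Of the 398 called list members and named genes, 370 were called without it and 0 changed sign.

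Day length and age went with a change in nearly every second probe set of the mutant leaf. Of 22746 probe sets 9849 (43.3%) were called, 4890 higher (21.5%) and 4959 lower (21.8%) in short days. The median size of a called change was 0.66. At least 2-fold changes numbered 1442 higher (6.34%) and 1346 lower (5.92%), at least 4-fold changes 345 and 325, and at least 16-fold changes 35 and 20. Calls were most frequent among bright probe sets, at 13.2% in the lowest quartile of brightness and 63.5% in the highest. Among the 13356 genes that a probe set names alone, 40.1% were called, 2684 higher (20.1%) and 2668 lower (20.0%), and at least 2-fold changes were 734 higher (5.5%) and 676 lower (5.06%). The values of the 3 short-day and the 3 long-day arrays did not overlap for 53.0% of probe sets and 50.7% of named genes. These percentages are the background for the counts that follow. The 8730 probe sets without a gene name changed by -6.60 to 6.46, with 674 called at least 2-fold higher and 639 at least 2-fold lower.

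The largest named rise was that of ORA47, an AP2/ERF transcription factor known to act on jasmonate and abscisic acid synthesis. It read 10.73, 10.59 and 10.74 in cs26 short days and 5.37, 5.34 and 5.53 in cs26 long days, a change of 5.27 ± 0.161 or 38.7-fold (limma adjusted p = 9.22e-11). All 3 short-day arrays lay far above all 3 long-day arrays, and wild type moved alike (5.46). AT1G73480 (4.86), AT5G12110 (4.60), AT1G19450 (4.57), AT1G13650 (4.48), AT2G20670 (4.46), COR15A (4.45), AT3G21670 (4.20), AT4G12980 (4.18) and AT4G29780 (4.15) followed. AT5G35970 (4.13), the cytochrome P450 CYP71B26 (4.07), AT5G43150 (4.05), AT2G27420 (4.05) and AT2G29500 (4.04) completed the 15 largest. Their model SEs ran from 0.08 for AT5G12110 to 0.19 for COR15A.

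The largest named fall was that of AT1G07050, with 3.97, 3.80 and 4.26 in cs26 short days and 9.63, 9.63 and 9.82 in cs26 long days. Its change of -5.68 ± 0.129 (51.4-fold lower, limma adjusted p = 8.85e-12) brought it close to the floor of the table in short days. The next falls were COR27 (-4.89), AT5G18470 (-4.80), AT1G48210 (-4.56), AT2G33850 (-4.26), AT1G78410 (-4.22), AT5G40690 (-4.15), AT3G47800 (-4.09), AT3G15630 (-3.99) and AT1G52770 (-3.82). AT4G22490 (-3.63), AT2G23910 (-3.60), AT5G51570 (-3.54), the vacuolar sugar transporter TMT1 (-3.50) and AT2G04460 (-3.31) completed the 15 largest. Of these falls, 4 came with no called change in wild type, where AT5G18470 changed by -0.13, AT2G33850 by -0.12, AT1G78410 by -0.01 and AT2G04460 by 0.03. For each of the 4 the difference between genotypes was itself called, at -4.67, -4.13, -4.21 and -3.35. In long days all 3 cs26 arrays of AT2G33850 lay between 7.81 and 8.06, while its short-day cs26 arrays lay between 3.64 and 3.77 and wild type averaged 3.79 in short days and 3.92 in long days.

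**Figure D1:**
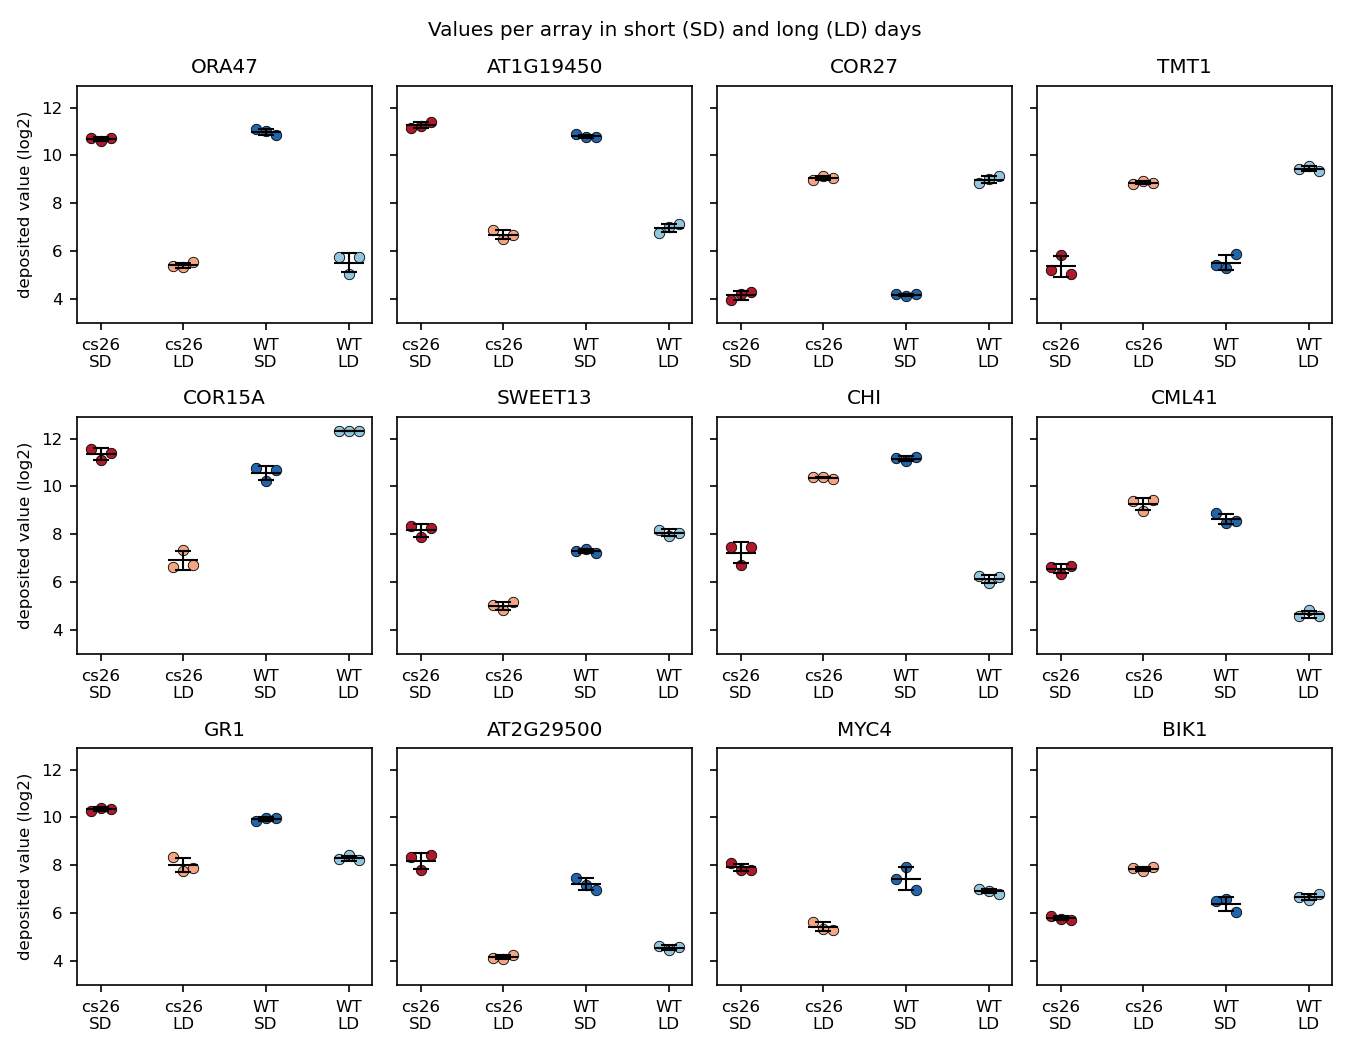
Deposited log2 values (y axis) of 12 genes on each array of cs26 short days, cs26 long days, wild-type short days and wild-type long days (x axis). Points are arrays and bars the mean with SD (n = 3). ORA47 and AT1G19450 rose and COR27 and TMT1 fell in both genotypes, whereas COR15A and SWEET13 rose and CHI and CML41 fell in cs26 with the opposite direction in wild type.

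The clock and day-length genes of the mutant mostly fell in short days, at an hour of harvest not known here. Of 9 measured, 5 fell, each at least 2-fold, and 2 rose, with a median of -1.04 against -0.01 over all named genes. COR27, a cold-regulated protein that feeds back on the clock, read 3.95, 4.21 and 4.31 in cs26 short days and 8.97, 9.12 and 9.06 in cs26 long days. Its change of -4.89 ± 0.103 (limma adjusted p = 4.70e-12) differed from that of wild type by -0.09 ± 0.146 (adjusted p = 0.712). GI, the GIGANTEA protein that times flowering and the clock, read 5.27, 6.39 and 5.51 in short days and 6.84, 6.81 and 6.65 in long days (-1.04 ± 0.226, adjusted p = 0.00224). The groups did not overlap, but replicate 2 lay closer to the long-day arrays than the other 2 did. In wild type GI changed by -2.61, and the difference between genotypes was 1.57 (adjusted p = 0.00269). TIC, the clock component TIME FOR COFFEE, fell by 1.44 and again stood highest in replicate 2 (7.54, against 6.10 and 5.90 in the other short-day arrays). Without that array the changes were -1.38 for GI and -1.95 for TIC. AT4G33980 fell by 2.55 and AT2G47890 by 1.13.

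Flowering and age genes were called about as often as all named genes (45.5% against 40.1%). Of 11, 2 rose, 3 fell and 6 were not called. The falls included FY (-0.51), of messenger RNA 3′-end processing, and ATC (-0.45), a relative of the floral repressor TFL1. SNZ, an AP2-type floral repressor, rose by 1.04 and AGL19, a MADS-box flowering activator, rose by 0.98, with 4.78, 4.49 and 5.09 in cs26 short days and 3.78, 3.83 and 3.80 in cs26 long days. HYH, the bZIP factor that works beside HY5 in light signalling, rose by 1.01 in cs26 and by 2.49 in wild type, a difference of -1.49 (adjusted p = 2.54e-04).

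Starch and sugar genes changed strongly, in both directions. PWD, a kinase that phosphorylates starch for its breakdown, read 6.96, 8.06 and 7.04 in cs26 short days and 9.98, 9.06 and 9.64 in cs26 long days, a change of -2.21 ± 0.271 (limma adjusted p = 2.45e-05). DPE1, the disproportionating enzyme of starch breakdown, fell by 1.91. APL3, which encodes a large subunit of the ADP-glucose-making enzyme, rose by 1.94 and the branching enzyme SBE2.2 rose by 1.24. Of the 7 starch genes, 3 rose and 3 fell in cs26 (each count 2 without replicate 2). In wild type 1 rose and 5 fell, and the change was higher in cs26 for 5 of the 7 by the test of the difference, where 13.0% of all named genes were. Those differences included 3.12 for APL3, 2.0 for PWD and 1.88 for SBE2.2.

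Of 17 sugar transporter and trehalose genes, 7 rose and 4 fell, of which 2 fell without replicate 1 of cs26 in short days or without replicate 2 or 3 in long days. SWEET13, an exporter of sucrose, read 8.35, 7.87 and 8.27 in cs26 short days and 5.04, 4.82 and 5.17 in cs26 long days, a rise of 3.15 ± 0.131 (limma adjusted p = 1.30e-09). In wild type it changed by -0.75, and the difference was 3.91 (adjusted p = 9.71e-09). SWEET2 and SWEET17, vacuolar members of that family, rose by 2.33 and 2.09, and SWEET11, a phloem-loading member, fell by 0.81. TMT1 fell in both genotypes, with 5.20, 5.86 and 5.03 in cs26 short days and 8.80, 8.94 and 8.84 in cs26 long days. Of 7 dark and carbon-starvation genes 3 rose and 1 fell (2 without replicate 2). The rises were PPDK (1.16), which converts between pyruvate and phosphoenolpyruvate, and MCCB (0.71) and IVD (0.50), of leucine breakdown. AKINBETA1, a subunit of the energy sensor SnRK1, fell by 1.21, against a rise of 0.83 in wild type.

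The cold-regulated COR15 pair moved against wild type. COR15A, a chloroplast protein that protects membranes in the cold, read 11.58, 11.10 and 11.41 in cs26 short days and 6.65, 7.36 and 6.73 in cs26 long days, a rise of 4.45 ± 0.19 (21.9-fold, limma adjusted p = 1.61e-09). In wild type it read 10.77, 10.23 and 10.70 in short days and 12.31, 12.32 and 12.32 in long days. The long-day cs26 arrays thus lay below all the others. COR15B read 9.57, 9.42 and 9.67 in cs26 short days and 7.21, 7.21 and 7.25 in cs26 long days (2.33 ± 0.101). The difference between genotypes was 6.20 for COR15A and 5.87 for COR15B (limma adjusted p = 4.48e-09 and 3.64e-11). They were the largest positive ones among genes whose cs26 values did not overlap between photoperiods. Of the 6 genes listed for cold, drought and abscisic acid, 4 rose and 1 fell in cs26, whereas 1 rose and 5 fell in wild type. The dehydrins COR47 and LTI30 rose by 1.18 and 0.67, and COR27 was the one that fell.

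Immune genes were lower in the short-day mutant and higher in short-day wild type. Of the 42 immune response loci measured, 30 fell and 8 rose in cs26, with a median of -0.82, and 18 of the falls were at least 2-fold. In wild type 30 rose and 1 fell, with a median of 1.0, where 20.5% of named genes rose and 21.1% fell. The test of the difference called 35 of the 42 lower in cs26 and 0 higher, where it called 24.4% of all named genes, 11.4% lower and 13.0% higher. This list was assembled with earlier results of these data known, so its direction is no independent evidence. Without replicate 2 of cs26 in short days, 27 fell.

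CHI, an endochitinase that acts on fungal cell walls, read 7.49, 6.72 and 7.47 in cs26 short days and 10.38, 10.39 and 10.33 in cs26 long days, a change of -3.14 ± 0.17 (limma adjusted p = 1.29e-08). In wild type it read 11.19, 11.05 and 11.23 in short days and 6.27, 5.95 and 6.22 in long days. The difference of -8.15 (adjusted p = 1.74e-10) was the most negative among genes whose cs26 values did not overlap between photoperiods. CML41, a calmodulin-like calcium sensor, read 6.65, 6.35 and 6.68 in cs26 short days and 9.40, 8.97 and 9.43 in cs26 long days (-2.71 ± 0.148). In wild type it rose by 3.97. Neither gene overlapped between photoperiods in wild type, and in cs26 that was a condition of being ranked here.

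SAL2, of the inositol phosphatase family, fell by 2.92 in cs26 and rose by 3.60 in wild type, and AT2G18690 (-2.89 and 3.64), AT1G57630 (-2.93 and 2.91) and AT2G44240 (-2.80 and 3.09) did likewise. AT5G39670 (-2.67 and 3.28), AT3G47480 (-2.54 and 3.46), AT5G52760 (-2.46 and 3.11) and AT3G01830 (-1.91 and 4.88) completed the 10 most negative differences among genes without such overlap in cs26. AT2G18690 and AT2G44240 belong to none of the lists. AT4G12490, of the immune response loci, read 5.70, 5.39 and 5.75 in cs26 short days and 8.32, 8.49 and 8.28 in cs26 long days (-2.75 ± 0.161), and rose by 1.85 in wild type. Not all immune response loci went this way. AT1G66100 rose by 2.28 in cs26 and 2.03 in wild type, and CML38, another calcium sensor, rose by 1.64 in cs26 and 3.72 in wild type. These 2 were chosen after their values were seen, as the 2 largest rises of the list in cs26.

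**Figure D2:**
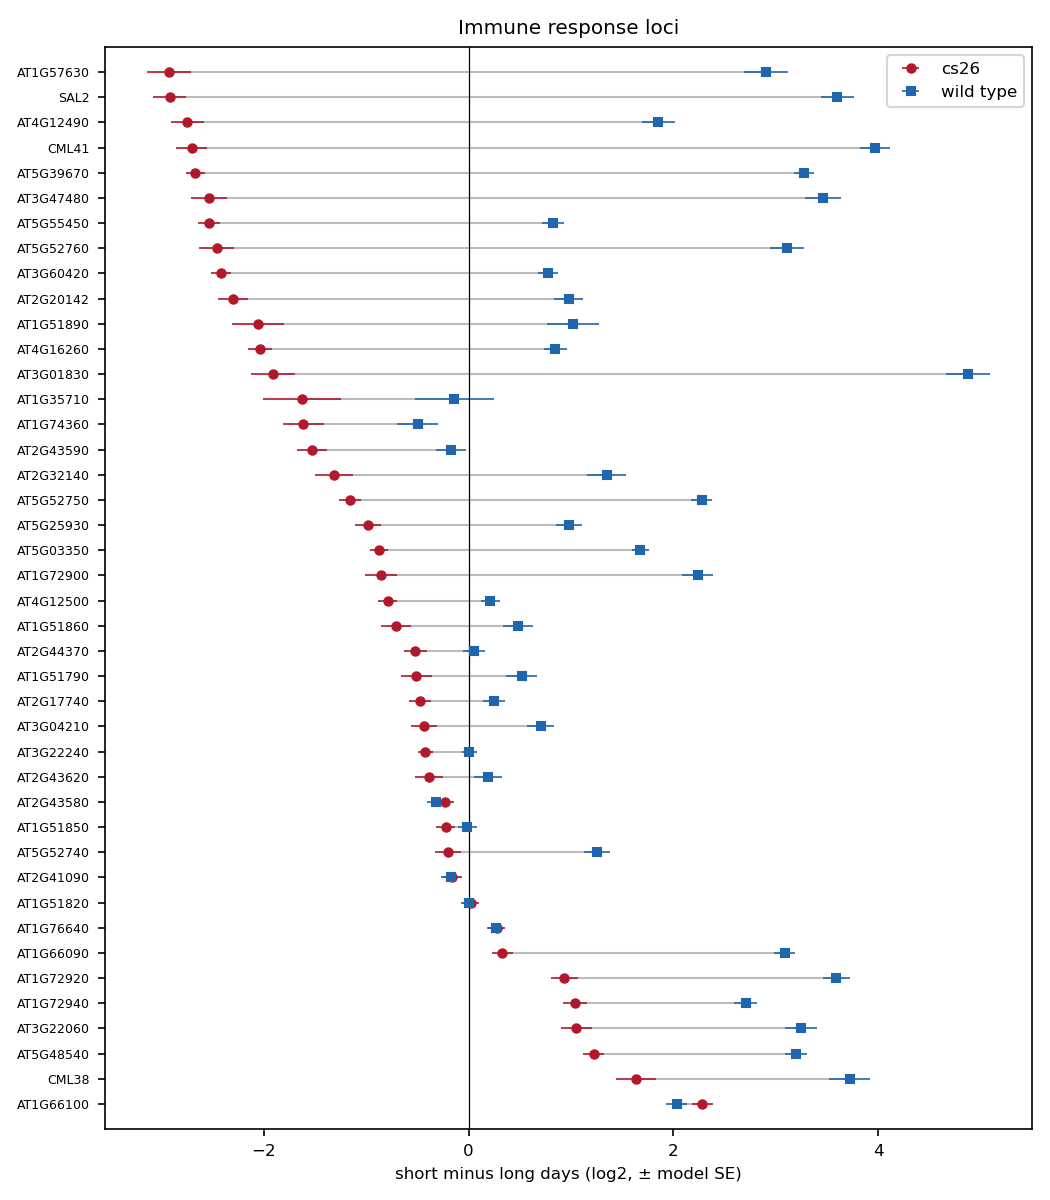
Change between short and long days (x axis, log2, with model SE) of the 42 immune response loci (y axis), in cs26 (circles) and in wild type (squares). For most loci the cs26 point lies left of 0 and the wild-type point right of it, and 8 loci rose in cs26.

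Signalling genes of immunity also fell more often than they rose. Of 18 genes of pattern-triggered immunity and calcium, 9 fell and 5 rose in cs26 (8 fell without replicate 2), and 2 fell and 11 rose in wild type. The test of the difference called 12 lower and 1 higher. BIK1, a receptor-linked kinase of immunity, read 5.89, 5.76 and 5.72 in cs26 short days and 7.88, 7.75 and 7.93 in cs26 long days (-2.06 ± 0.129), and changed by -0.29 in wild type with no call. CML42 fell by 2.33 and the glutamate receptor-like GLR2.8 by 1.74. Of the 6 WRKY factors 3 fell, with changes of -2.94 for WRKY47, -2.19 for WRKY6 and -1.50 for WRKY53. WRKY53, a regulator of senescence and defence, read 8.11, 7.99 and 8.28 in cs26 short days and 9.75, 9.48 and 9.65 in cs26 long days, and it rose by 3.00 in wild type (difference -4.50, limma adjusted p = 1.99e-09).

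Among salicylate and systemic resistance genes 2 of 5 fell and 0 rose. GRX480, a glutaredoxin that binds TGA factors, fell by 1.38 in cs26 and rose by 2.74 in wild type. UGT76B1, which glycosylates defence regulators, fell by 0.56 and rose by 3.02. Osmotin-like OSM34 fell by 1.97, and the jasmonate-responsive defensins PDF1.2b and PDF1.2 fell by 1.44 and 1.13. The defensins fell in wild type too, by 1.04 and 1.83. STZ, the zinc-finger factor ZAT10 of the reactive oxygen list, rose by 0.61 in cs26 and by 4.47 in wild type. EX1, the chloroplast protein EXECUTER1 of that list, fell by 0.62.

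On the jasmonate list 4 of 8 genes rose and 2 fell, with a median of 0.195 against -0.01 over all named genes. The falls were the defensin PDF1.2 given above (-1.13) and MYC3 (-0.37). Without replicate 2 of cs26 in short days 3 rose, OPCL1 (0.39) losing its call. Leaving out replicate 1 of cs26 in short days, or replicate 1 or 3 in long days, left 1 fall. Beside ORA47, the factor MYC4 read 8.10, 7.81 and 7.82 in cs26 short days and 5.65, 5.33 and 5.31 in cs26 long days, a rise of 2.48 ± 0.192 (limma adjusted p = 3.63e-07). Its change in wild type was 0.51, and the difference 1.97 (adjusted p = 1.42e-04). JMT, the enzyme that methylates jasmonate, rose by 1.31 in cs26 and changed by -0.03 in wild type. ARL, a relative of the organ-size gene ARGOS kept here on the ethylene list, fell by 1.85.

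Heat shock genes mostly rose, while folding genes of the endoplasmic reticulum fell. Of 23 heat shock and chaperone genes, 15 rose and 3 fell in cs26, 10 of the rises at least 2-fold, with a median of 0.85. AT2G29500, a locus of this list, read 8.35, 7.81 and 8.42 in cs26 short days and 4.14, 4.08 and 4.25 in cs26 long days (4.04 ± 0.158, limma adjusted p = 7.39e-10). AT5G48570 rose by 3.45 and AT1G53540 by 2.62, whereas Hsp70-2, a cytosolic chaperone, fell by 2.33. AT1G53540 changed by 0.08 in wild type with no call, and its difference was 2.55 (adjusted p = 4.73e-07). In wild type 10 of the 23 rose and 1 fell. Of 6 genes of endoplasmic reticulum folding 5 fell and 0 rose (4 fell without replicate 2), led by the calreticulin CRT1b (-1.94) and the J-domain protein ATERDJ3B (-1.36). The stress sensors BZIP17 and BZIP28 fell by 1.08 and 0.83. For 4 of the 6 the difference from wild type was called lower.

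Of 10 autophagy genes 4 fell and 0 rose. Without replicate 2 of cs26 in short days 3 fell and 2 rose, the rises being ATG3 (0.51) and ATG8F (0.34), and without replicate 1 of cs26 in long days 1 rose. The 4 falls were ATG8D (-2.42), APG8A (-0.83), APG8H (-0.69) and ATG8G (-0.41), which encode ATG8 proteins, the ubiquitin-like coat of the autophagosome. Without replicate 2 the change of APG8A was -0.54. Of 7 senescence genes 2 rose and 3 fell in cs26, and 6 rose and 1 fell in wild type. NOL, of chlorophyll b breakdown, rose by 1.02. The falls were YLS5 (-0.90) and the factors WRKY6 and WRKY53 given above, which other lists count as well.

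Genes of cytosolic ribosomal proteins fell more often than they rose in cs26, by small amounts. Of 130 measured, 34 (26.2%) fell and 16 (12.3%) rose, against 20.0% and 20.1% of all named genes, with a median of -0.14. Called changes of at least 2-fold numbered 3, AT1G80750 by 1.33, AT3G04230 by -1.33 and AT3G28500 by -1.03, and the next was AT3G02190 at -0.91. In wild type 77 rose and 2 fell, with a median of 0.36, and the test of the difference called 76 lower in cs26 and 0 higher. Rises in cs26 numbered 10 without replicate 1 and 9 without replicate 2 of cs26 in long days. The median level of the list was at most 10.11 on each cs26 short-day array and at least 10.17 on each cs26 long-day array.

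**Figure D3:**
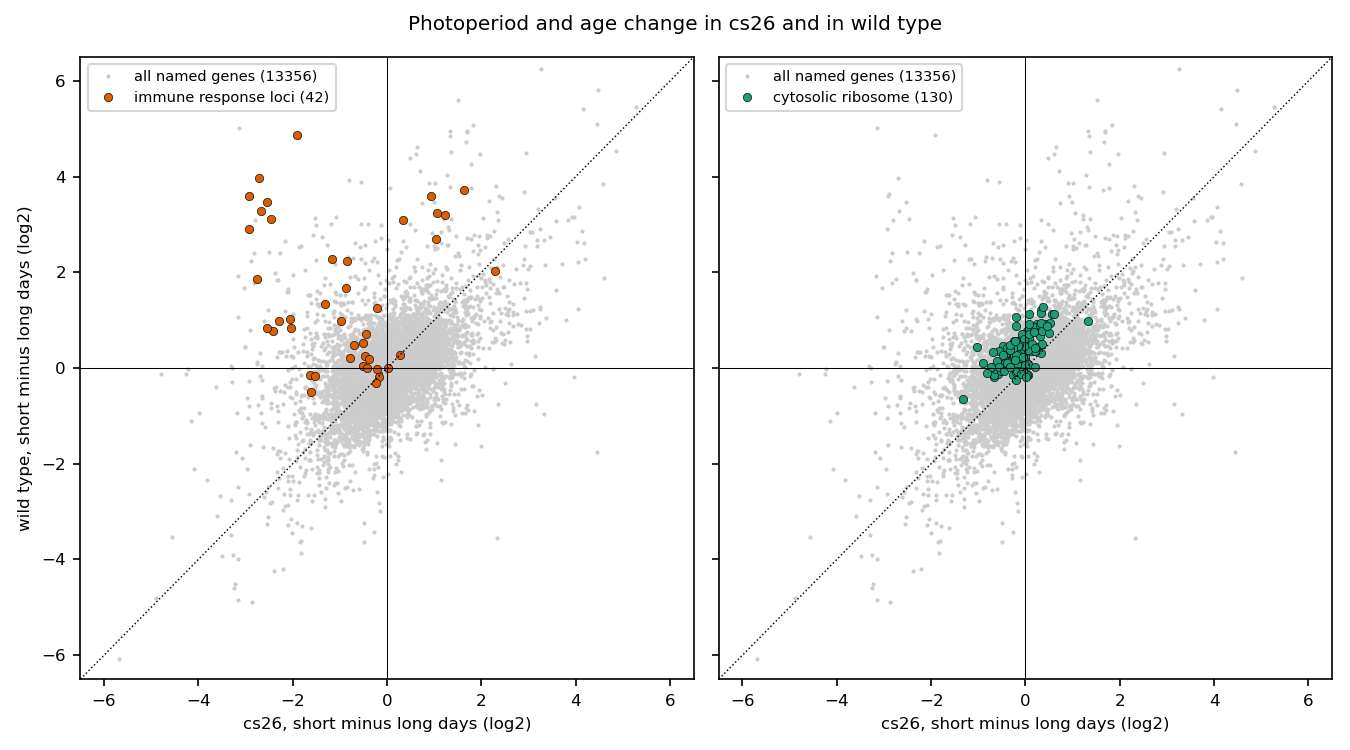
Change between short and long days in cs26 (x axis, log2) against that in wild type (y axis, log2) for 13356 named genes (grey), with the 42 immune response loci (left) and the 130 cytosolic ribosomal protein genes (right) on top. The dotted line marks equal change. Most members of both lists lie above it, and 30 of the immune loci fell in cs26.

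Nuclear photosynthesis genes rose more often than they fell. Of 39 genes of the photosystems, the NDH complex and thylakoid assembly, 16 rose and 8 fell in cs26 (15 and 9 without replicate 2), with a median of 0.14. In wild type 7 rose and 15 fell, and the test of the difference called 15 higher in cs26 and 0 lower. LHCB4.2, an antenna protein of photosystem II, read 13.21, 13.21 and 13.11 in cs26 short days and 10.73, 10.79 and 10.51 in cs26 long days (2.50 ± 0.09, limma adjusted p = 3.59e-10). Its relative LHCB4.3 fell by 1.34, and LHCB4.1 was not called (0.14). CRR21, a factor that edits an ndh transcript of the plastid, rose by 1.64 and changed by 0.02 in wild type (difference 1.62, adjusted p = 2.23e-05). CYTC6A, a thylakoid cytochrome, and AT1G51400 rose by 1.38 and 1.37. PSBW and PSBY of photosystem II rose by 0.39 and 0.41, and PSAN and PSAE-1 of photosystem I by 0.31 and 0.23.

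In the Calvin cycle SBPASE, sedoheptulose bisphosphatase, rose by 0.46, the only call among 3 genes, although 1 fell without replicate 2 of cs26 in short days or without wild-type short-day replicate 3. Both photorespiratory genes rose, the hydroxypyruvate reductase HPR by 0.59 and AT1G80380 by 0.54, each with a called difference from wild type (0.61 and 0.62). Of 9 genes of tetrapyrrole and chlorophyll synthesis 2 rose and 4 fell. Rises numbered 0 without replicate 3 of cs26 in long days, and 1 without replicate 1 or 3 of cs26 in short days, replicate 1 or 2 of cs26 in long days, replicate 1 or 2 of wild type in short days, or replicate 1 or 3 of wild type in long days. The falls were GSA1 (-1.01), HEMA2 (-0.42) and HEMB1 (-0.39), of early steps, and PORB (-0.66), of a late one.

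Signals of plastid-genome genes moved in both directions, with differing counts by the complex they encode. The labelling is known to prime at poly(A) tails, and how that enters the signals of plastid transcripts was not tested. Of 69 measured, 25 rose and 14 fell in cs26, 19 and 7 of them at least 2-fold, with a median of -0.03. Of 15 ribosomal protein genes 11 rose and 0 fell (median 1.16), but without replicate 2 of cs26 in short days 10 rose and 2 fell, rps2 (-2.20) and rps4 (-0.71). Of 15 photosystem II genes 7 rose and 1 fell (median 0.32). Without replicate 3 of cs26 in short days or in long days 5 rose, and with 1 array left out falls numbered 0 to 2. Of 6 ATP synthase genes 3 fell and 0 rose (median -0.93), and of 7 photosystem I genes, counting the assembly factors ycf3 and ycf4, 3 fell and 1 rose (median -0.83). The 10 NDH genes gave 4 rises and 3 falls. Leaving out replicate 1 or 3 in short days, or 1 or 2 in long days, left 2 falls each for ATP synthase and photosystem I and 1 for NDH. In wild type 11 of the 69 rose and 28 fell, and the test of the difference called 20 higher in cs26 and 0 lower.

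rps3, of the small plastid ribosomal subunit, read 11.50, 11.85 and 11.46 in cs26 short days and 9.16, 7.21 and 8.69 in cs26 long days, a rise of 3.25 ± 0.351 (limma adjusted p = 8.05e-06). rpl22 read 9.39, 10.13 and 9.65 in short days and 7.69, 5.54 and 7.01 in long days (2.98 ± 0.406). rpl36 rose by 2.67 ± 0.266. The groups did not overlap for any of these 3, although the long-day arrays were far apart. In the plastid gene order, rpoA, rpl36, rpl14, rps3, rpl22 and rps19 lie in 1 stretch, and their changes were 1.99, 2.67, 1.31, 3.25, 2.98 and 1.70, while rpl16 within it was not called (-0.16). They are neighbours on 1 chromosome and no independent measurements.

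psaA, a reaction-centre protein of photosystem I, read 5.76, 8.36 and 6.49 in cs26 short days and 9.69, 9.04 and 9.06 in cs26 long days, a change of -2.39 ± 0.551 (limma adjusted p = 0.00338). Replicate 2 again lay closest to the long-day arrays. It was the highest short-day cs26 array for 59 of the 69 plastid genes, and for 14 of the 14 that fell. Without it 23 plastid genes rose and 21 fell, and psaA changed by -3.14. Leaving out replicate 1 or 3 of the short-day group, or replicate 1 of the long-day group, left 7 falls each, and leaving out replicate 2 of the long-day group left 9. The count of falls therefore hangs on single arrays, while rises stayed between 22 and 26. The spread of plastid genes was also wide, with a median SD of 0.39 in cs26 short days and 0.28 in cs26 long days, against 0.12 and 0.10 for the other named genes.

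**Figure D4:**
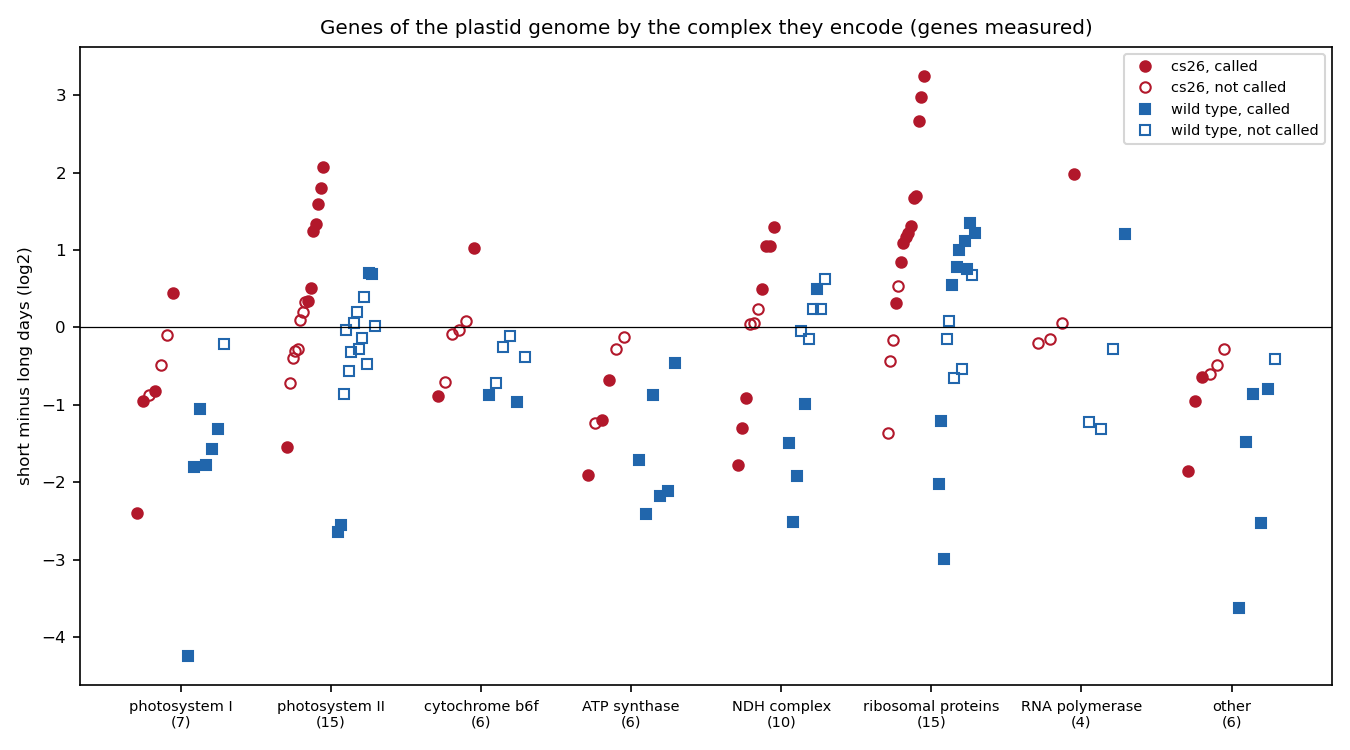
Change between short and long days (y axis, log2) of 69 plastid-encoded genes, grouped by the complex they encode (x axis, with the number of genes), in cs26 (circles) and wild type (squares). Filled symbols passed the test. The 11 called ribosomal protein genes of cs26 all lie above 0, and its 3 called ATP synthase genes lie below 0.

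Redox and sulfur genes changed in both directions. Of 10 ascorbate, glutathione and antioxidant genes 5 rose and 4 fell. GR1, a glutathione reductase, read 10.25, 10.41 and 10.36 in cs26 short days and 8.33, 7.78 and 7.89 in cs26 long days (2.34 ± 0.125, limma adjusted p = 1.13e-08), and rose by 1.64 in wild type (difference 0.70, adjusted p = 0.0103). VTC4, of ascorbate synthesis, rose by 2.16 and CCS, the copper chaperone of superoxide dismutase, by 1.72, while the monodehydroascorbate reductase ATMDAR2 fell by 1.16. Of 4 genes of the thioredoxin system 2 rose, TRXF2 (0.63) and the reductase NTRC (0.51), and the thioredoxin TO1 fell (-0.50).

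Of 6 genes of sulfate and cysteine synthesis 2 rose and 2 fell, none by 2-fold. CBL, cystathionine beta-lyase, rose by 0.53 and the ATP sulfurylase APS3 by 0.43, whereas the sulfite reductase SIR fell by 0.57 and APS4 by 0.50. For 0 of the 6 was the difference from wild type called by limma. Of the 6 glucosinolate genes 4 rose and 0 fell, among them AOP1 (1.92), AT2G31790 (0.69), the glucosyltransferase UGT74B1 (0.60) and the aminotransferase BCAT4 (0.32).

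Flavonoid genes divided. All 7 measured genes were called, 4 up and 3 down. CHIL, a chalcone isomerase-like protein, rose by 2.23, HCT, of lignin and phenylpropanoid synthesis, by 1.47 and the flavonol glucosyltransferase UGT78D2 by 1.01. DFR, dihydroflavonol reductase of anthocyanin synthesis, read 4.54, 4.40 and 4.22 in cs26 short days and 6.65, 5.99 and 6.02 in cs26 long days (-1.83 ± 0.185, limma adjusted p = 4.33e-06). In wild type DFR fell by 3.87. The difference was called higher in cs26 for 6 of the 7.

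Families of metabolic enzymes held both large rises and many members without a call. Beta-glucosidases and glutathione S-transferases were called about as often as all named genes (40.1%), so their counts do not set these families apart. Of 20 beta-glucosidases 4 rose and 4 fell, led by BGLU40, which read 9.43, 9.28 and 9.37 in cs26 short days and 5.92, 5.34 and 6.04 in cs26 long days (3.59 ± 0.142). BGLU47 rose by 2.95, BGLU33 by 2.24 and BGLU25 by 0.94, and BGLU44 fell by 1.27. BGLU33 changed by -0.01 in wild type (difference 2.25, limma adjusted p = 1.58e-05). Of 47 UGT glycosyltransferases 14 rose and 10 fell, with UGT74D1 (2.81), UGT76E11 (2.35) and UGT88A1 (2.24) highest and UGT87A2 lowest (-1.49). Of 23 cytochrome P450 genes 5 rose and 8 fell (5 fell without replicate 3 of cs26 in long days), led by CYP71B26 (4.07) and CYP71B22 (-1.96). CYP71B35 and CYP71B34, of the same subfamily, rose by 1.78 and 1.38. Of 14 glutathione S-transferases 5 rose, with GSTU16 (1.30) and GSTU23 (1.06) highest, and GSTU27 fell (-0.57). Without replicate 1 of cs26 in short days, or replicate 1 or 2 in long days, 2 of them fell. GSTU26 rose by 0.49 in cs26 and changed by -0.43 in wild type (difference 0.92). Aldehyde dehydrogenases rose and fell in equal number, 3 each of 8, with ALDH7B4 at 1.69 and ALDH2C4 at -1.14. ALDH11A3 rose by 1.41 and ALDH6B2, of valine breakdown, fell by 0.98. The wax ester synthase WSD1, the one gene of the cuticle list, rose by 0.35.

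Growth genes changed in both directions. Of 27 cell wall loosening genes 5 rose and 10 fell (8 fell without replicate 2), and only 3 fell when dim probe sets were left out. The rises were the larger ones, EXPB1, a beta-expansin, at 2.69, XTH32, a xyloglucan-modifying enzyme, at 2.54 and EXLA1 at 2.17, whereas EXPA4 fell by 1.44. Of 6 gibberellin and brassinosteroid genes 3 fell and 0 rose (1 rose without replicate 1 of cs26 in short days). The falls were the receptors GID1A (-1.48) and GID1B (-1.09) and the F-box protein SLY1 (-0.41), which acts after them. Auxin genes were called about as often as all named genes (43.8% against 40.1%). Among 16 of them 5 rose and 2 fell (1 and 0 with dim probe sets left out, which removes members from the test, and 4 fell with array weights or median centring). The homeodomain factor HAT2 (1.56) and IAA29 (0.67) were up and the conjugating enzymes WES1 (-0.58) and GH3.3 (-0.43) down. ARR15, a cytokinin response regulator, rose by 1.69. The iron-deficiency factors BHLH101 and PYE rose by 2.31 and 0.85.

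Markers of cell types moved with the photoperiod too. TRY, a trichome-patterning repressor, rose by 2.24, with 8.21, 7.70 and 8.12 in cs26 short days and 5.77, 5.81 and 5.72 in cs26 long days. Of the 5 genes of the epidermis, stomata and trichome list 2 rose and 2 fell. The stomatal factors SPCH and FMA fell by 0.41 and 0.70, the stomatal signal peptide STOMAGEN rose by 0.35, and MUTE was not called (-0.12). Of 4 dividing-cell genes 2 fell, PRL, a DNA replication helicase subunit, by 1.29 and the kinase AUR2 by 0.58. Both root-hair expansins fell, by 0.37 and 0.55, and both were among the probe sets left out as dim in a separate setting. Their part in the other results was not tested.

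**Figure D5:**
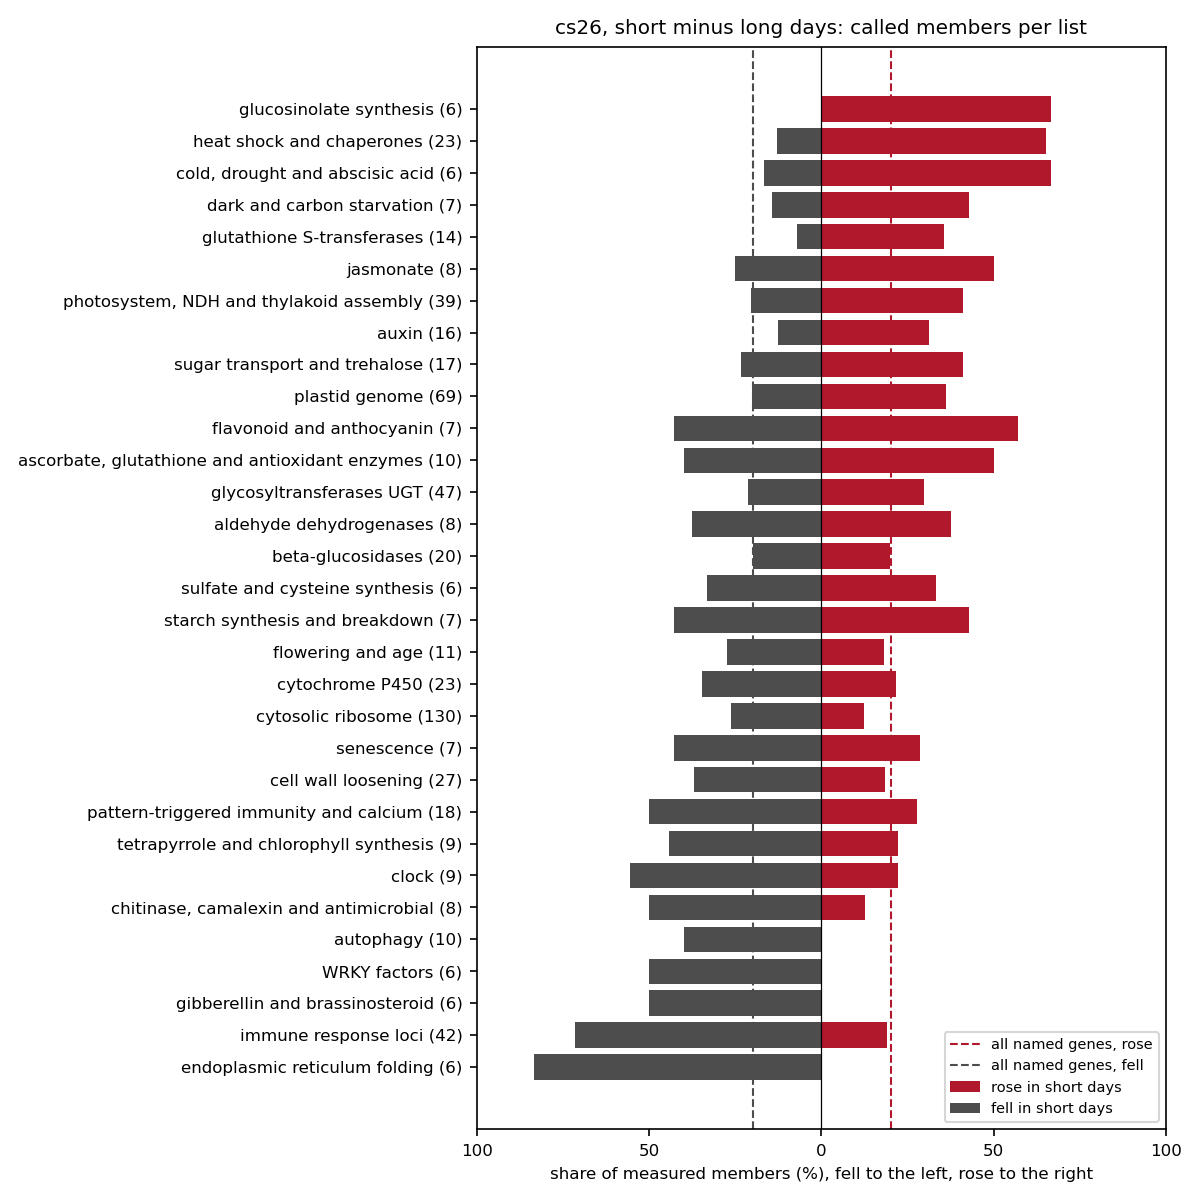
Share of the measured members of each list (x axis, percent) that rose (right of 0) or fell (left of 0) between short and long days in cs26, for lists of at least 6 members (y axis, number measured in parentheses). Dashed lines mark the shares over all named genes, 20.1% risen and 20.0% fallen. Immune response loci and endoplasmic reticulum folding genes lie far left, and heat shock, glucosinolate and cold genes far right.

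Some named genes with small changes lost their call when single arrays were left out, while others with changes as small kept it. Of the 187 genes named by rule, 11 lost it. Replicates 1 to 3 are those of cs26 unless wild type is named.

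STOMAGEN lost it without short-day replicate 1 (0.40) or 3 (0.22), long-day replicate 1 (0.24) or 3 (0.37), wild-type short-day replicate 1, or wild-type long-day replicate 1 or 3 (0.35 each). ATG8G lost it without short-day replicate 1 (-0.41) or 2 (-0.29), long-day replicate 2 (-0.28) or 3 (-0.43), or replicate 1 or 2 of either wild-type group (-0.41 each). PSAE-1 lost it without short-day replicate 1 or 3 (0.22 each) or long-day replicate 1 (0.17).

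IVD lost it without short-day replicate 1 (0.49) or 3 (0.45) or long-day replicate 2 (0.27), and WSD1 without short-day replicate 1 (0.27) or 3 (0.31) or long-day replicate 3 (0.32). SLY1 lost it without short-day replicate 1 (-0.42) or 2 (-0.32) or long-day replicate 2 (-0.34) or 3 (-0.44). TO1 lost it without short-day replicate 2 (-0.29) or long-day replicate 1 (-0.50) or 3 (-0.47). No call of these genes changed sign. ATC lost it without short-day replicate 3 (-0.33) or long-day replicate 2 (-0.40) or 3 (-0.43). EX1 lost it without short-day replicate 1 (-0.50), HEMA2 without long-day replicate 1 (-0.30) and PSBY without long-day replicate 3 (0.35).

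The mutant's response overlapped with that of wild type but was not the same. In wild type 10186 probe sets (44.8%) were called. Of the 9849 called in cs26 and the 10186 called in wild type, 6245 were shared. Wild type thus called 63.4% of the cs26 list, against 44.8% of all probe sets. The mutant called 61.3% of the wild-type list, against 43.3% of all probe sets. Of the shared ones 5087 moved the same way and 1158 (18.5%) the opposite way, 448 higher in cs26 short days and 710 lower. The 2 comparisons share no array, but they share the model's estimate of the spread of each probe set, so their calls are not independent. Across probe sets their changes correlated with r = 0.49 and rho = 0.46, a description in which probe sets are not independent. The test of the difference between genotypes called 6268 probe sets (27.6%), 3370 higher in cs26 (14.8%) and 2898 lower (12.7%).

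Genes moved alike in both genotypes included ORA47, AT1G73480, AT1G19450 (4.57 in cs26 and 3.85 in wild type), AT1G13650, AT2G20670 and AT4G29780 on the higher side. On the lower side they were AT1G07050, COR27, AT1G48210, TMT1, AT2G21130 (-3.30 and -3.48) and AT5G62360 (-3.26 and -3.91). For AT1G13650, AT4G29780, AT2G20670, AT1G19450, AT1G48210 and AT5G62360 the size of the change still differed between genotypes by the limma test.

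Named genes that rose in cs26 and fell in wild type included, beside COR15A, COR15B, APL3, SWEET13, UGT76E11 and SBE2.2, AT1G80130 (1.99 and -1.63), AT1G22160 (1.44 and -1.58) and the carboxypeptidase-like scpl20 (1.36 and -1.17). TBL26, of the TRICHOME BIREFRINGENCE-LIKE family that acetylates wall polymers, rose by 3.33 in cs26 and fell by 0.97 in wild type. It read 10.25, 10.14 and 10.20 in cs26 short days and 6.93, 6.88 and 6.80 in cs26 long days. AT1G78070 rose by 3.97 and was not called in wild type (-0.19), with a difference of 4.16 (limma adjusted p = 4.72e-09). AT1G51090 rose by 1.15 against -2.35 in wild type. AT1G11700 had a positive difference (3.15) of another kind, since it fell in both genotypes, by 0.49 in cs26 and by 3.64 in wild type.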

How the data were processed

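RNA of each leaf sample was hybridised to 1 Affymetrix ATH1 array. The values used are the authors' deposited log2 signals, 1 per probe set and array, with 2 decimals (3.12 to 14.27, array medians 5.42 to 5.52). The submitters' processing notes name RMA and the affy package, with versions not given in the sources used here. RMA makes the distributions of arrays normalised together alike and so removes an overall shift in transcript level. Whether all 12 arrays were normalised in 1 run is not given in the sources used here. Labelling followed the standard Affymetrix protocol, per the labels, which is known to prime at poly(A) tails. The 3 arrays a group limit the precision.

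A limma 3.58.1 model in R 4.3.3 held 4 group means (8 residual and 4.32 prior degrees of freedom). Adjustment was by the Benjamini-Hochberg method, over 22746 probe sets. Tested on simulated data for the cs26 comparison over 22746 probe sets, it recovered 33 of 33 rises and 33 of 33 falls of 2 on the log2 scale, and 15 of 34 and 16 of 33 of 0.5, with 11 false calls.

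Of the probe sets, 13513 name 1 gene (13356 genes), 503 several and 8730 none. Names were updated through the TAIR10.1 table (13436 matched). A gene with several probe sets is given by the brightest, and 2 genes had probe sets called in opposite directions. The table holds no roles, so locus numbers are described only by the list that holds them.

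Named genes are the 15 largest rises and falls of cs26 and the 10 largest differences each way. Both sets were taken only from called genes whose cs26 values did not overlap between photoperiods. Also named are the 6 largest changes shared by or opposed between the genotypes in each way, up to 4 members of each list, and BGLU25. GI, LHCB4.1, RCA, AMS, LTI30, CML38, AT1G66100, MUTE, ATG3, ATG8F, rps2, rps4 and the plastid neighbours of rps3 were added after their values were seen. Members and lists were chosen with earlier results of these data known. Some genes stand in several lists, so the counts of lists are not independent. Of the lists, 5 were extended by locus after gaps in the annotation were seen, and 16 wrong symbol matches were removed. Alternatives were another normalisation, centring, prior, array weights, probe set filters, the threshold, the replicate number as a block, leaving out each array, and the most variable probe set of a gene. A planned description of promoter motifs was not made.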

Additional observations from a re-analysis of the deposited data

Results flagged for a closer look

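These genes stand out because the change between short and long days differed between cs26 and wild type by limma's test of the difference itself, at an adjusted p under 0.05. Of the 187 genes named by rule this held for 128, of which 71 differences were positive (the cs26 change higher than the wild-type change) and 57 negative. All values here are that difference on the log2 scale. No test for single outlying arrays was made, since every group holds 3 arrays.

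Among cold, sugar and starch genes the difference was 6.20 for COR15A, 5.87 for COR15B, 2.33 for COR47, 3.91 for SWEET13, 3.12 for APL3, 2.0 for PWD, 1.88 for SBE2.2, 1.40 for PPDK, 1.33 for DPE1 and 1.09 for MCCB, and on the negative side -0.93 for SWEET2 and -2.04 for AKINBETA1. Positive values outside these lists came from TBL26 (4.30), AT1G78070 (4.16), AT1G80130 (3.63), AT1G51090 (3.49), AT1G11700 (3.15), AT1G22160 (3.03), AT5G43150 (2.82), AT5G12110 (2.72), scpl20 (2.54), AT3G21670 (1.93), AT2G27420 (1.83), AT4G12980 (1.56) and AT5G35970 (1.27).

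Genes of the immune lists, which were assembled with earlier results of these data known, gave most of the most negative values. They were -8.15 for CHI, -6.79 for AT3G01830, -6.68 for CML41, -6.53 for SAL2, -6.00 for AT3G47480, -5.95 for AT5G39670, -5.83 for AT1G57630 and -5.57 for AT5G52760, beside -6.53 for AT2G18690 and -5.89 for AT2G44240, which no list holds. WRKY53 (-4.50), WRKY47 (-2.67), WRKY6 (-1.68), GRX480 (-4.12), STZ (-3.86), UGT76B1 (-3.58), OSM34 (-2.40), GLR2.8 (-2.38), BIK1 (-1.78), CML42 (-0.53) and AT4G12490 (-4.60) followed, whereas PDF1.2 was positive (0.70).

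Among photosynthesis, chlorophyll and plastid-encoded genes these values were positive: rpl22 (2.30), rps3 (2.02), rpl36 (1.32), CRR21 (1.62), LHCB4.2 (1.25), LHCB4.3 (0.51), AT1G51400 (0.68), CYTC6A (0.61), AT1G80380 (0.62), HPR (0.61), SBPASE (0.40), PORB (0.81) and NOL (0.56). Clock and light genes gave 1.30 for AT2G47890, 0.71 for AT4G33980, 0.55 for SNZ and -1.49 for HYH.

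Chaperone, senescence and autophagy genes gave 2.55 for AT1G53540 and 1.39 for AT2G29500, against -3.35 for Hsp70-2, -2.47 for ATERDJ3B, -1.70 for CRT1b, -1.41 for YLS5, -1.40 for APG8A and -0.51 for APG8H. AT3G28500 (-1.47), AT3G02190 (-1.01) and AT3G04230 (-0.67) are of the cytosolic ribosome list.

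Metabolic enzymes were mostly positive, with UGT76E11 (3.09), BGLU33 (2.25), BGLU47 (2.14), BGLU40 (1.96), DFR (2.04), CHIL (1.68), UGT78D2 (0.92), CYP71B34 (1.37), CYP71B35 (1.37), AOP1 (1.21), AT2G31790 (0.73), UGT88A1 (1.09), UGT74D1 (1.03), ALDH7B4 (1.08), ALDH11A3 (0.80), ALDH6B2 (0.45), GSTU26 (0.92), GSTU16 (0.81), GR1 (0.70) and VTC4 (0.68). UGT87A2 (-3.09), CYP71B22 (-0.80) and TRXF2 (-0.41) were negative.

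Growth, hormone, iron and cell-type genes gave 1.97 for MYC4, 1.72 for HAT2, 1.45 for TRY, 1.34 for JMT, 1.03 for XTH32, 0.94 for EXPB1 and 0.91 for PYE, and -1.32 for EXLA1, -0.94 for ARL, -0.76 for GID1B, -0.72 for WES1, -0.57 for GH3.3 and -0.53 for AUR2. Genes that moved the same way in both genotypes but by unequal amounts included AT1G19450 (0.73), AT5G62360 (0.65), AT1G13650 (-1.32), AT4G29780 (-1.26), AT1G48210 (-1.03), AT5G51570 (-0.87), AT2G20670 (-0.64) and AT2G23910 (-0.51). The larger falls of cs26 gave -4.67 for AT5G18470, -4.21 for AT1G78410, -4.13 for AT2G33850, -3.35 for AT2G04460, -3.23 for AT4G22490, -3.05 for AT3G15630, -3.04 for AT5G40690, -1.98 for AT3G47800 and -1.48 for AT1G52770.

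Of the 128 differences, 111 were called under every setting run for them and 17 were lost under at least 1, with 0 reversed. Those lost under more settings than the stricter threshold were AUR2, CYTC6A, rpl36, SBPASE, TRXF2, CML42, PDF1.2, APG8H and ALDH6B2.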

How the results depend on the processing

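Of the 187 cs26 changes named by rule, 175 were called under every setting run for them and 12 were lost under at least 1, with 0 reversed. AT1G11700 was lost only at an adjusted p under 0.01, and 11 when single arrays were left out. The setting without dim probe sets was not run for 22 of the 187, which it removes from the test, nor for 11 of the 128 called differences. With 1 array left out, called probe sets ran from 8504 to 9945 in cs26 (2666 to 2920 at 2-fold or more, 4179 to 4942 higher and 4309 to 5003 lower), from 8484 to 10746 in wild type (2518 to 2886, 4106 to 5191 and 4378 to 5555), and from 5352 to 6305 for the difference (2347 to 2739, 2761 to 3451 and 2569 to 2854). Testing only probe sets that name 1 gene, 13513 in all, gave 5371 calls in cs26 (2689 higher, 2682 lower, 1418 at 2-fold or more), 5594 in wild type (2747, 2847 and 1288) and 3203 for the difference (1701, 1502 and 1239), because fewer probe sets were tested. At an adjusted p under 0.01 the difference was called for 4057, 2044 of them higher. Whether replicate numbers pair plants is not given in the sources used here. Same-numbered cs26 arrays of the 2 photoperiods correlated in their deviations at -0.22, -0.12 and 0.06. Deviations from means of 3 arrays cannot decide the question. With the replicate number as a block, 9387 probe sets were called in cs26. Whether rises or falls were more numerous in cs26 depended on the setting, for instance 4573 against 5199 with each array centred on its median. For the difference, a fit of only the arrays of the contrast is the same fit, so it has no value of its own. Of 106 list counts, 67 stayed within 1.5 times under every setting. With dim probe sets left out, counts fell for want of tested members, for instance in cs26 rises of glutathione S-transferases to 1 and falls of UGT genes to 5. Signals near the floor of 3.12 limit what low probe sets can show.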
